A study of Canis lupus familiaris with 186 samples.

Results

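The 9 genes RUNX2, SP7, DLX5, ALPL, IBSP, BGLAP, SPP1, PHEX and DMP1 of the osteoblast lineage were followed across 186 primary tumors of dogs with osteosarcoma, a bone cancer whose malignant cells make osteoid. They were taken by symbol from the gene table, where each of the 9 had 1 row among 37952 genes. All 9 were among the 13422 genes that passed the filter on low counts. Each tumor came from a different pet dog with appendicular disease, was sampled before any treatment, and was profiled once by bulk mRNA sequencing. The labels divide the dogs by clinical trial into COTC021 (n = 93) and COTC022 (n = 93). After the biopsy the dogs had the limb amputated and received carboplatin with or without rapamycin, so no sample here had met either agent. The dogs' ages are not given in the labels, and no normal bone was compared.

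Osteoblasts arise from mesenchymal progenitors. RUNX2, a runt-domain transcription factor, starts the program, and SP7 (osterix), a zinc finger factor, acts after it. DLX5 is a homeobox factor of the bone morphogenetic protein response. ALPL, the tissue-nonspecific alkaline phosphatase, removes the mineralization inhibitor pyrophosphate and marks early matrix-making cells. IBSP (bone sialoprotein), BGLAP (osteocalcin) and SPP1 (osteopontin) are secreted proteins of mineralizing matrix, and SPP1 is also made by macrophages and osteoclasts. PHEX, a membrane endopeptidase, and DMP1, an acidic matrix phosphoprotein, belong to the last steps, as osteoblasts become osteocytes, and both act in phosphate control. Below, RUNX2, SP7, DLX5 and ALPL are called early and the other 5 late.

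In the RefSeq annotation of the dog genome build the study mapped to, UU_Cfam_GSD_1.0, SPP1 (chromosome 32, 28630350 to 28638599), IBSP (28790260 to 28803929) and DMP1 (28939356 to 28952608) lie in that order on the same stretch, 151660 and 135426 bases apart. MEPE, another gene of acidic bone matrix proteins (28767808 to 28778081), lies between SPP1 and IBSP and did not pass the filter on low counts. RUNX2 spans chromosome 12, 13825170 to 14151515, and shares part of that span with SUPT3H. SP7 lies on chromosome 27 at 44766164 to 44782966, ALPL on chromosome 2 at 76961389 to 76976632, and PHEX on chromosome X at 17904817 to 18114749. DLX5 (chromosome 14, 22043227 to 22047620) falls wholly inside the annotated span of DLX6 (22028123 to 22048798), and BGLAP (chromosome 7, 41613117 to 41614007) overlaps the end of SLC25A44. Uncharacterized loci also overlap RUNX2, ALPL, SPP1 and PHEX. The library kit keeps the strand, but the strand setting used for counting is not given in the sources used here, so reads of overlapping genes may have been shared.

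Library totals ran from 6587631 to 27420857 assigned reads, with a median of 10797162. The deposited library names come in 2 spellings. The ending is joined on by 1 low bar in 136 names, with a median total of 9851681, and by 2 low bars in 50 names, with a median of 19440450. No source says what the spelling stands for, so it is treated only as a library-name group (1-bar or 2-bar) that goes with depth. COTC021 has 18 2-bar libraries and COTC022 has 32. With the trial in the model, 573 genes (4.27% of those tested, either direction) differed between the library-name groups by limma-voom at an adjusted p under 0.05, and none of the 9 was among them. Lowest of the 9 in p were RUNX2, 0.32 log2 units higher in the 2-bar libraries (adjusted p = 0.142), and DLX5, with a difference of -0.41 (adjusted p = 0.257).

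Levels are given as CPM, a gene's counts scaled to one common library total. They compare tumors for 1 gene; no transcript lengths were at hand, so genes are not ranked against each other by level. RUNX2 ran from 30.4 to 1053 CPM with a median of 212, and was read in every tumor. SP7 had a median of 23.2 CPM and a highest value of 74.8 CPM. One tumor had no SP7 read, which at its depth allows up to 0.447 CPM (3 counts; this covers counting error only). DLX5 went from 0.127 to 152 CPM, with a median of 39.7. Of these 3 genes SP7 came closest to the detection limit, with under 10 counts in 9 tumors.

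ALPL, the early enzyme, ranged from 0.696 to 5097 CPM around a median of 695. IBSP ran from no reads in 1 tumor to 12559 CPM, with a median of 722. SPP1 ran from 34.3 to 12565 CPM, with a median of 1389. At their highest, IBSP and SPP1 each made up 1.26% of all assigned reads of a tumor. BGLAP had a median of 26.4 CPM within a range of 0.228 to 912 CPM. PHEX had a median of 16.7 CPM, a highest value of 417 CPM and 1 tumor without reads. DMP1 had a median of 53.7 CPM and a highest value of 1468 CPM, and 4 tumors had no DMP1 read (upper limits of 0.149 to 0.391 CPM at their depths). Fewer than 10 DMP1 counts were seen in 13 tumors, against 9 tumors for SP7 and for BGLAP, 6 for PHEX, 4 for IBSP and 1 for DLX5.

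On the log2 CPM scale with TMM library factors (trimmed mean of M-values), PHEX, BGLAP, IBSP and DMP1 varied more than any early gene. SPP1, also late, varied less from tumor to tumor than ALPL. RUNX2 had a standard deviation of 0.76 log2 units, close to the median of 0.62 over all genes tested and at their 63.7th percentile. The standard deviation was 1.23 for DLX5, 1.60 for SP7, 1.61 for SPP1 and 2.03 for ALPL. It rose to 2.16 for PHEX, 2.40 for BGLAP, 2.74 for IBSP and 3.00 for DMP1, which stood at the 99.7th percentile. In CPM, the 90th percentile of tumors was 3.73 times the 10th for RUNX2 and 302 times the 10th for DMP1. SP7, BGLAP, PHEX and DMP1 have the most tumors under 10 counts, where log2 values are least precise.

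**Figure D1:**
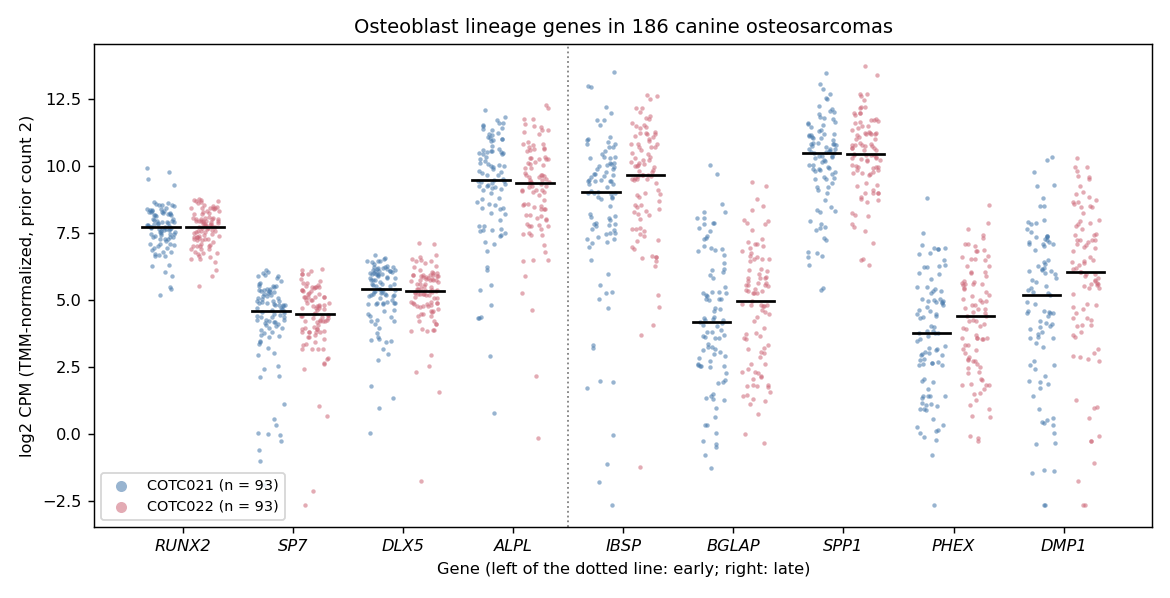
Each point is 1 tumor, with its TMM-normalized log2 CPM on the vertical axis, for the 9 genes and both trials (blue, COTC021; red, COTC022; n = 93 each); black bars mark medians. RUNX2 points stay in a narrow band (standard deviation 0.76), while DMP1 points spread widest (3.00), and the trials overlap for every gene.

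The comparison of the trials asks whether the dogs that entered them had tumors of like osteoblast gene expression before treatment. None of the 9 genes passed limma-voom with Benjamini-Hochberg adjustment, and only 2 of 13422 genes did (0.0149%, either direction), RAB24 and VPS9D1. At an unadjusted p under 0.05 there were 1332 genes, 3 of the 9 among them. These were IBSP, PHEX and DMP1.

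IBSP had a median of 559 CPM in COTC021 (lowest 0, highest 12559) and of 814 CPM in COTC022 (lowest 0.253, highest 5653). The trials overlapped through nearly their whole range. The fitted difference, COTC022 minus COTC021, was 1.04 log2 units (95% interval 0.24 to 1.84, adjusted p = 0.352). It was 0.33 in edgeR (adjusted p = 0.677), and within library-name groups it was 1.23 in the 136 1-bar libraries and 0.31 in the 50 2-bar ones. DMP1 had medians of 34.3 CPM in COTC021 (0 to 1468) and 70.3 CPM in COTC022 (0 to 1121), a difference of 0.94 log2 units (0.03 to 1.85, adjusted p = 0.481). PHEX, with medians of 13.2 CPM (0 to 417) and 20.1 CPM (0.615 to 380), differed by 0.68 (0.04 to 1.31, adjusted p = 0.461), and by 0.39 in edgeR.

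The other 6 genes had intervals that include 0. RUNX2 had medians of 212 CPM in COTC021 and 213 CPM in COTC022, with a difference of -0.03 log2 units (-0.25 to 0.19). DLX5 differed by 0.01 (-0.35 to 0.37), ALPL by -0.06 (-0.64 to 0.53), SP7 by 0.21 (-0.26 to 0.69) and SPP1 by 0.26 (-0.20 to 0.72). BGLAP had medians of 16.5 and 34.8 CPM and differed by 0.53 (-0.16 to 1.22, adjusted p = 0.650).

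Co-expression was taken from the 36 pairs of the 9 genes over the 186 tumors. Pearson r was positive for all 36 pairs, with a median of 0.47, and Spearman rho for 35 (median 0.43). The 2-sided permutation p (100000 resamples) was under 0.05 for r in 33 pairs and for rho in 33 pairs, and in 33 pairs each gene was called in the limma-voom fit on the other one. The smallest p the resampling can give is 1e-05. The 3 pairs that passed none of these tests were those of SPP1 with RUNX2, SP7 and DLX5.

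Each gene in turn was also fitted against all genes with the trial in the model. On RUNX2, 7 of the other 8 genes had a called positive slope, where 19.4% of all genes did. The counts were 7 of 8 on SP7 (21.8% of all genes) and 7 of 8 on DLX5 (21.6%). All of the other 8 genes were called positive on ALPL (21.3% of all genes), on IBSP (13.2%), on BGLAP (16.4%), on PHEX (10.1%) and on DMP1 (11.1%). On SPP1 it was 5 of 8 (13.6%). No slope among the 9 genes was called negative.

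The 4 early genes moved closely together. Over their 6 pairs r ran from 0.51 to 0.81 with a median of 0.68, and rho had a median of 0.50. SP7 and ALPL gave the highest r of all 36 pairs, 0.81 (rho = 0.68, permutation p = 1e-05 for both, adjusted p = 1.34e-35 over all genes). SP7 with RUNX2, the factor upstream of it, gave r = 0.73 and rho = 0.68 (permutation p = 1e-05 for both). Without the 2 tumors farthest from the median of the first gene, r was 0.77 for SP7 with ALPL and 0.70 for RUNX2 with SP7. DLX5 with RUNX2 was the loosest early pair, at r = 0.51 and rho = 0.43.

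Among the 5 late genes the 10 pairs had a median r of 0.51 and a median rho of 0.50. PHEX and DMP1, the genes of the step to osteocytes, gave r = 0.70 and rho = 0.70, the highest rho of all pairs. IBSP followed DMP1 with r = 0.69 (rho = 0.68) and PHEX with r = 0.62 (rho = 0.67). BGLAP was tied to DMP1 at r = 0.60 and to PHEX at r = 0.54, and less to IBSP (r = 0.36, rho = 0.30). All these permutation p values were 1e-05, except that of rho for BGLAP with IBSP (p = 7e-05). Without the 2 farthest tumors, r was 0.70 for PHEX with DMP1 and 0.69 for IBSP with DMP1. SPP1, on the same stretch of chromosome 32 as IBSP and DMP1, had r = 0.40 with IBSP and 0.46 with DMP1.

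The 20 pairs of an early with a late gene had a median r of 0.45 and a median rho of 0.34. The highest r was that of SP7 with IBSP, 0.69 (rho = 0.45), followed by ALPL with IBSP, 0.66 (rho = 0.53). For DLX5 with IBSP, r was 0.55 and rho 0.20 (permutation p = 1e-05 and 0.00792). That r was 0.45 without the 2 tumors farthest from the median of DLX5. By r, PHEX was the late gene least tied to RUNX2 and DLX5 after SPP1, at r = 0.32 and 0.28. By rho, IBSP was less tied to RUNX2 (0.28) than PHEX was (0.32), and with DLX5 they had 0.20 and 0.19. Taking the pairs apart by trial, the early with late median r was 0.48 in COTC021 and 0.41 in COTC022. In the library-name groups it was 0.46 (1-bar) and 0.35 (2-bar).

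SPP1 stood apart from the early factors. Its r was 0.12 with RUNX2 (rho = 0.05, permutation p = 0.109 and 0.47), 0.14 with SP7 (rho = 0.04, p = 0.0613 and 0.614) and 0.10 with DLX5 (rho = -0.01, p = 0.175 and 0.909). Without the 2 farthest tumors, r with SP7 was 0.16 and passed (permutation p = 0.0329). With ALPL the tie was weak (r = 0.22, rho = 0.19, permutation p = 0.00284 and 0.00885), and in COTC021 alone it was 0.17 and did not pass. Over the 8 pairs with SPP1 the median r was 0.26, and over the 28 pairs without it 0.52. Once the trial, the library-name group and the level of the immune signature GS-1 (below) had been regressed out, SPP1 was positively tied to RUNX2 (r = 0.27), SP7 (0.32) and DLX5 (0.27) as well, and all 36 pairs passed. With the osteoclast marker level regressed out too, these 3 values were -0.01, 0.13 and 0.10, and 33 pairs passed.

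A principal component analysis of the 9 scaled genes describes the same structure. The first component held 54.7% of the variance, and all 9 genes had the same sign on it, SPP1 with the smallest weight (0.19) and SP7 with the largest (0.38). The second held 15.7%. RUNX2, SP7, DLX5 and ALPL had negative weights on it (-0.33, -0.34, -0.33 and -0.22), and the late genes had positive ones, from 0.08 for IBSP to 0.57 for SPP1. The third, 7.76%, was mostly BGLAP (weight 0.79).

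**Figure D2:**
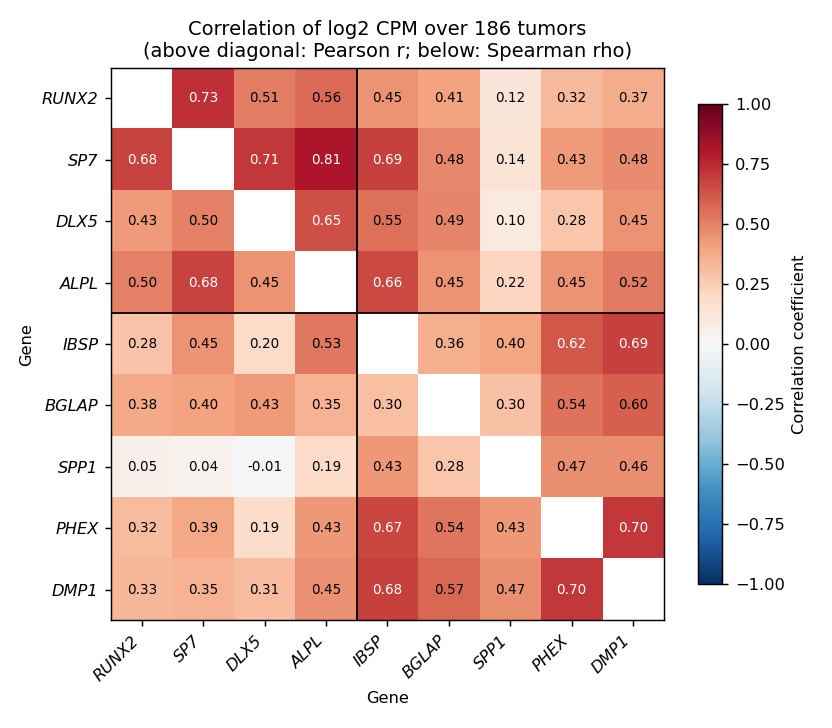
Correlation coefficients of log2 CPM for each pair of the 9 genes over 186 tumors, Pearson r above the diagonal and Spearman rho below; black lines part early from late genes. SP7 with ALPL has the highest r (0.81) and PHEX with DMP1 the highest rho (0.70), and the SPP1 row is near 0 for RUNX2, SP7 and DLX5.

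For each gene, the named genes outside the list with the highest Spearman rho over the 186 tumors were looked up, at most 3 for each, as a description of likeness. The median rho over all genes was within 0.02 of 0 for each of the 9. Nearest to RUNX2 were CYP39A1 (rho = 0.68) and USP49 (0.67), both on chromosome 12 with it. SP7 was most like the sodium-calcium exchanger gene SLC8A3 (0.77) and the homeobox gene DLX3 (0.75). DLX5 had its overlapping partner DLX6 first (0.86), then DYNC1I1 (0.71), on the same chromosome, and INSC (0.62). ALPL was most like BAMBI (0.72), a decoy receptor of the transforming growth factor beta family, SLC8A3 (0.71) and B4GALNT3 (0.71).

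The late genes had other companions. IBSP was most like COL22A1 (0.74), IFITM5 (0.71), a membrane protein of mineralizing osteoblasts, and SLC36A2 (0.70), an amino acid transporter. PHEX shared COL22A1 (0.70) and SLC36A2 (0.64) with IBSP, behind SOST (0.74), which encodes the osteocyte product sclerostin. DMP1 was most like CD200 (0.58), SOST (0.58) and BMP3 (0.57). BGLAP was most like NPY (0.66), CD200 (0.64) and PLXDC1 (0.60). For SPP1 the nearest genes were CD14 (0.75), the monocyte co-receptor for lipopolysaccharide, SNX10 (0.74), which osteoclasts need to resorb bone, and SLC9B2 (0.74), an ion exchanger of osteoclasts.

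GS-1 is a signature of immune genes by which the study divides tumors. Its genes came from an earlier comparison of canine osteosarcomas with an osteoblast reference. The labels used here give no such clusters, so z-scores of 27 genes were averaged into a level scaled to a standard deviation of 1 (lowest tumor -2.12, highest 3.60), and genes were fitted on that level with the trial in the model. Disease-free interval and survival were not analysed here. In limma-voom, 3048 genes (22.7%) were higher and 3595 (26.8%) lower with a higher GS-1 level, at an adjusted p under 0.05. Of the 9 genes, 5 were lower, 1 was higher and 3 did not pass, with a median slope of -0.31 log2 units per SD beside -0.02 over all genes.

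All 4 early genes fell as the GS-1 level rose. The slope of ALPL was -0.89 log2 units per SD of the level (SE 0.14, adjusted p = 5.58e-09), at the 0.04th percentile of all slopes, and that of SP7 was -0.72 (SE 0.11, adjusted p = 1.34e-09). DLX5 had a slope of -0.57 (SE 0.08, adjusted p = 3.39e-10) and RUNX2 one of -0.31 (SE 0.05, adjusted p = 5.48e-08). Their r with the level was -0.42, -0.52, -0.51 and -0.41 in that order (rho -0.38, -0.51, -0.40 and -0.38, permutation p = 1e-05 for each). Without the 2 tumors farthest from the median level, r was -0.34, -0.45, -0.42 and -0.39. The 4 early genes were called lower in each trial and in each library-name group when fitted alone.

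Of the late genes, IBSP fell by 0.81 log2 units per SD (SE 0.20, adjusted p = 0.000278, r = -0.29, rho = -0.20, permutation p = 7e-05 and 0.00685). That slope was less steady. It was -0.41 in edgeR (adjusted p = 0.0318), -0.55 without the 2 tumors farthest in level (adjusted p = 0.0190), -0.50 in the 1-bar libraries (adjusted p = 0.106) and -1.36 in the 2-bar ones, while COTC021 alone gave -0.81 (adjusted p = 0.0541). BGLAP (slope -0.23, 95% interval -0.58 to 0.12), PHEX (-0.04, -0.36 to 0.28) and DMP1 (-0.27, -0.73 to 0.19) did not pass (adjusted p = 0.286, 0.849 and 0.342).

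SPP1 went the other way. Its level rose by 0.42 log2 units per SD of GS-1 (SE 0.12, adjusted p = 0.00109, r = 0.24, rho = 0.25, permutation p = 0.00068 and 0.00035). The slope was 0.57 in COTC021 (adjusted p = 0.00945) and 0.29 in COTC022 (adjusted p = 0.118). It was 0.62 in the 1-bar libraries (adjusted p = 0.000212) and -0.05 in the 2-bar ones (95% interval -0.43 to 0.33, adjusted p = 0.880). COTC021 and the 1-bar libraries passed when fitted alone, and COTC022 and the 2-bar libraries did not. Tested as an interaction with the library-name group, the difference between these slopes of SPP1 was -0.64 (95% interval -1.13 to -0.15, adjusted p = 0.454), and that of IBSP was -0.90 (-1.75 to -0.05, adjusted p = 0.595). None of the 9 passed this interaction, and 3 of all genes did (0.0224%). For the interaction of the level with the trial, no gene passed (0%; 395 at an unadjusted p under 0.05, 2 genes adjusted in edgeR), and the estimate for SPP1 was -0.29 (-0.75 to 0.16).

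Slopes of 2 genes were compared within tumors, as the slope of their log2 ratio on the GS-1 level with the trial in an ordinary least squares fit. In 24 of the 36 pairs the 95% interval left out 0, and SPP1 differed in this way from each of the other 8. SP7 minus SPP1 was -1.22 (-1.47 to -0.97). SP7 and ALPL did not part (0.03, -0.14 to 0.21), nor SP7 and IBSP (-0.06, -0.35 to 0.23). All other pairs of early genes parted. RUNX2 minus SP7 was 0.51 (0.36 to 0.66), RUNX2 minus DLX5 0.31 (0.16 to 0.46) and RUNX2 minus ALPL 0.54 (0.30 to 0.78). SP7 minus DLX5 was -0.20 (-0.36 to -0.04) and DLX5 minus ALPL 0.23 (0.0062 to 0.45). Among the late genes, IBSP parted from BGLAP, SPP1, PHEX and DMP1. Against PHEX 3 of the 4 early genes parted, and against DMP1 2 of the 4. SP7 minus PHEX was -0.76 (-1.03 to -0.48), ALPL minus PHEX -0.79 (-1.08 to -0.49) and DLX5 minus PHEX -0.56 (-0.86 to -0.25). RUNX2 minus PHEX was -0.25 (-0.54 to 0.05), which includes 0. SP7 minus DMP1 was -0.50 (-0.88 to -0.13) and ALPL minus DMP1 -0.53 (-0.90 to -0.17), while the intervals of DLX5 minus DMP1 (-0.30, -0.69 to 0.08) and of RUNX2 minus DMP1 (0.01, -0.39 to 0.41) include 0. These fits weight all tumors equally, so a difference need not equal the gap between the limma-voom slopes.

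**Figure D3:**
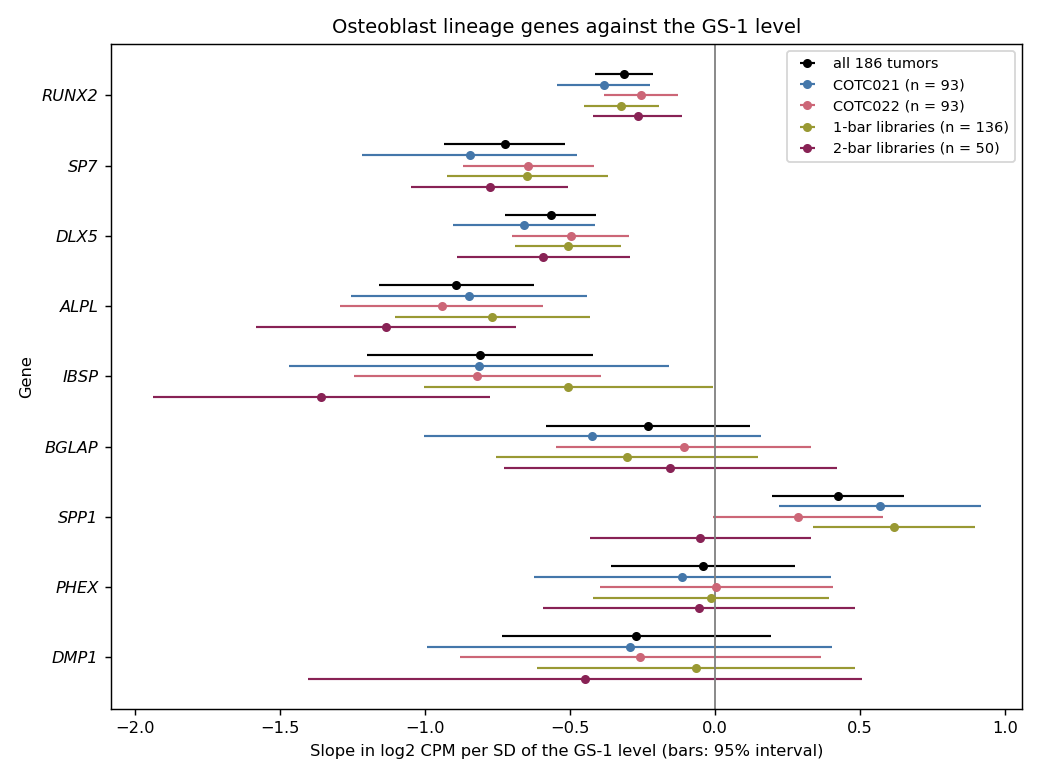
Slopes of the 9 genes on the GS-1 level in log2 CPM per SD, with 95% intervals, from limma-voom over all 186 tumors and within each trial and each library-name group. RUNX2, SP7, DLX5 and ALPL lie below 0 in every subset, SPP1 lies above 0 except in the 2-bar libraries (-0.05), and PHEX is centered on 0 (-0.04).

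The GS-1 level moved with markers of other cell types, whose part in these results was not tested. All 13 of the 18 leukocyte markers that passed the filter were called higher with it, and a level made from them had r = 0.96 with the GS-1 level, although the lists share no gene. With the GS-1 level 7 of 9 chondrocyte markers and 8 of 8 proliferation genes were called lower, 7 of 8 endothelial markers higher and 3 of 9 osteoclast markers higher. The summed CPM of the 18 ran from 92.0 to 6422, none was at 0 in every tumor and 1 in most tumors, and the median was 918 CPM in COTC021 and 830 CPM in COTC022. Against that leukocyte level 49.5% of genes were called, and the 9 genes kept their calls and directions. SPP1 had a slope of 0.63 and ALPL one of -0.85. In bulk tissue, fewer cells of a type and less RNA per cell cannot be told apart.

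Osteoclast markers were the list to which all 9 genes were positively tied. Against the osteoclast level, made from the 9 that passed the filter of 10 markers such as ACP5 and CTSK, 4240 genes (31.6%) were called in either direction and 2016 (15%) upward. All 9 genes were called upward. SPP1 had the lowest p of the 9, with a slope of 1.27 log2 units per SD (SE 0.07, adjusted p = 8.36e-40, r = 0.79, rho = 0.69), and ranked 78th of 13422 genes by p. DMP1 followed with a slope of 1.33 (SE 0.26, adjusted p = 1.06e-05, r = 0.40). The other late genes had slopes of 0.80 (IBSP), 0.73 (PHEX) and 0.69 (BGLAP). By p, BGLAP (rank 1997) came after the early genes ALPL (1486) and RUNX2 (1922). The early genes had slopes of 0.58 (ALPL), 0.39 (SP7), 0.23 (DLX5) and 0.20 (RUNX2), and for SP7 and DLX5 rho was only 0.10 and 0.05 (permutation p = 0.188 and 0.485).

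The summed CPM of the 10 osteoclast markers ran from 85.2 to 39482, and none was at 0 in most tumors. The osteoclast and GS-1 levels were nearly unrelated to each other (r = 0.10, rho = 0.09). With the osteoclast level added to the GS-1 fit, a choice made after these values were seen, the slope of SPP1 on GS-1 was 0.28 (95% interval 0.13 to 0.42, adjusted p = 0.000604), that of ALPL -0.95 and that of IBSP -0.89, and no call among the 9 changed. SPP1 kept its slope on the osteoclast level in that fit, at 1.23. How much of each gene's RNA came from tumor cells, osteoclasts or macrophages was not tested.

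**Figure D4:**
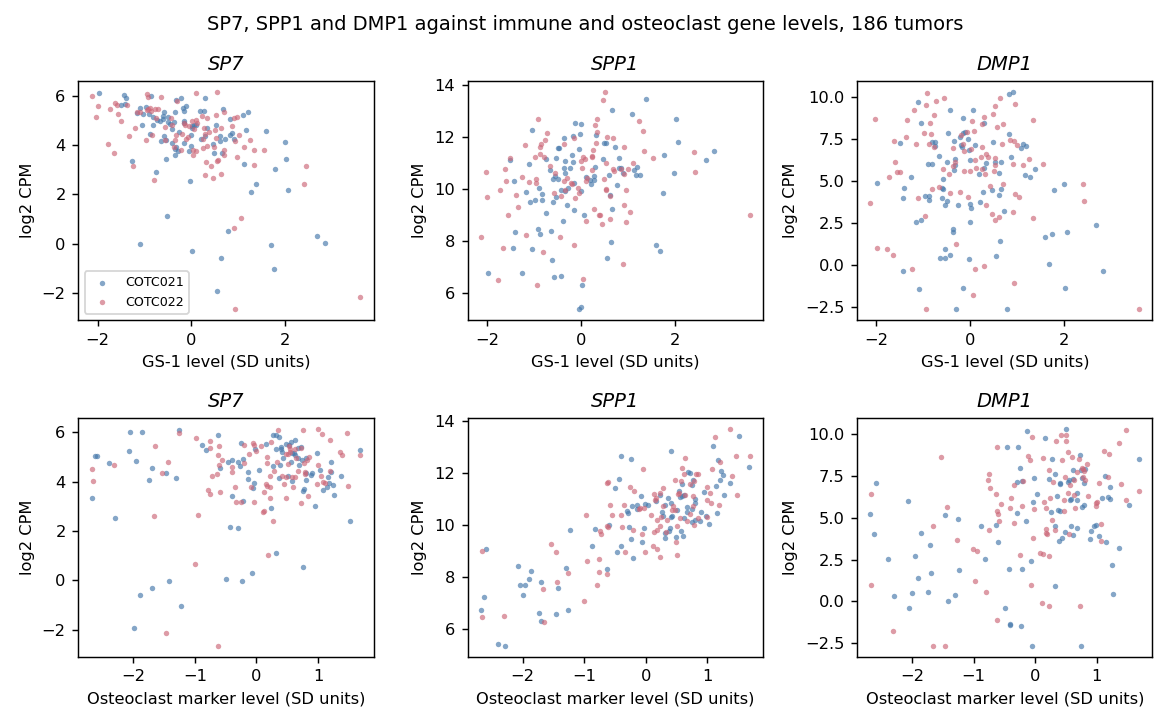
Log2 CPM of SP7, SPP1 and DMP1 against the GS-1 level (upper row) and the osteoclast marker level (lower row), both in SD units; each point is 1 of 186 tumors, colored by trial. SP7 falls with GS-1 (r = -0.52), SPP1 climbs steeply with the osteoclast level (r = 0.79), and DMP1 shows a wide cloud in both (r = -0.12 and 0.40).

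The other 6 marker lists were fitted in the same way, with slopes per SD of each list's level. With the proliferation level (54.2% of genes called), SP7, DLX5, ALPL and IBSP were called higher, with slopes of 0.51, 0.31, 0.59 and 0.60. BGLAP (-0.52) and SPP1 (-0.29) were called lower, so that genes of the lineage lay on both sides. RUNX2 (0.10), PHEX (-0.21) and DMP1 (-0.35) did not pass. With the endothelial level (40.7% called), RUNX2, SP7, DLX5 and ALPL were called lower, DLX5 with the largest slope (-0.42, adjusted p = 3.42e-05), and no late gene passed.

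With the fibroblast level (34.9% called), RUNX2 (-0.21), IBSP (-0.59) and SPP1 (-0.29) were called lower. The chondrocyte level (31.8% called) went up with SP7 (0.29), DLX5 (0.26) and IBSP (0.69), and the other 6 did not pass. No gene of the 9 passed with the adipocyte level (31.7% called), made from only 3 markers, or with the skeletal muscle level (12% called). At an unadjusted p under 0.05 there were 2 of the 9 for adipocyte markers, beside 5641 of all 13422 genes tested. For muscle markers there were 4 of the 9, beside 3508 of the 13422.

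**Figure D5:**
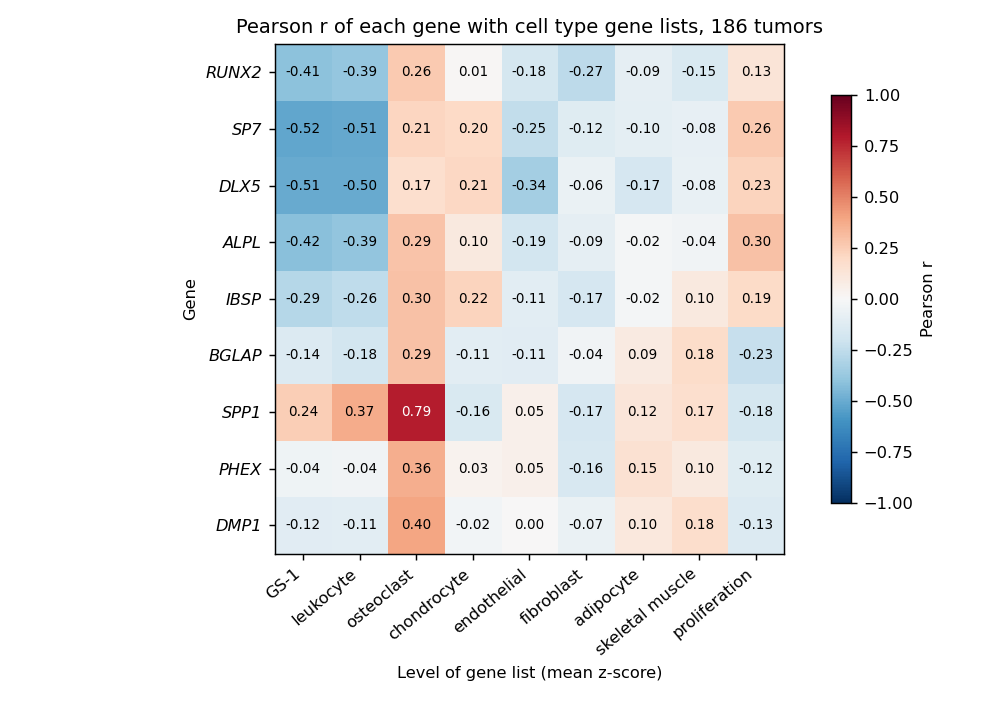
Pearson r over 186 tumors between each of the 9 genes (rows) and the level of each gene list (columns), each level being the mean z-score of the list. The osteoclast column is positive in all rows, from 0.17 for DLX5 to 0.79 for SPP1, and the GS-1 and leukocyte columns are negative for the early genes and positive for SPP1.

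A wider list of 49 genes of osteoblast signaling, matrix and mineral handling was drawn up with earlier results of these data known. It held 47 genes of the table and 44 that passed the filter. None of the 44 was called between the trials. With the GS-1 level 29 were lower, 1 was higher and 14 did not pass, with a median slope of -0.29 beside -0.02 over all genes and beside 26.8% of all genes called lower. The 5 with the largest slopes were SOST (-0.86, adjusted p = 0.00104), the growth factor receptor gene FGFR3 (-0.76), SMPD3 (-0.72), a sphingomyelinase needed for mineralization, DLX6 (-0.70) and the bone proteoglycan gene OMD (-0.70). SOST, the gene most like PHEX here, was called with GS-1, and PHEX was not; their difference was not tested. The 1 gene called higher was CAPG (0.19, adjusted p = 0.0155), an actin-capping protein that macrophages also express; it was singled out after its value was seen.

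The wider list was also counted in the fits on SP7, DMP1 and SPP1, whose differences from each other were not tested. On SP7, 32 of the 44 genes had a called positive slope and 3 a negative one, where 21.8% and 23.1% of all genes did. On DMP1 it was 26 and 0, beside 11.1% and 8.55% of all genes. On SPP1 there were 15 called upward and 7 downward, beside 13.6% and 13.4%. Of 13 leukocyte markers, 8 were called upward with SPP1 and none downward, while 11 were called downward with SP7. All 9 osteoclast markers rose with SPP1 and with DMP1, and 3 of them with SP7.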

How the data were processed

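Frozen tumor RNA was sequenced by the authors from stranded mRNA libraries. Reads were trimmed with Cutadapt, aligned to UU_Cfam_GSD_1.0 with STAR (2.7.0f) and quantified with RSEM (1.3.1), as the study's methods and the submitters' processing notes state. The deposited values are RSEM expected counts per gene, not normalized; 3.07% of them were not whole, and they were rounded here. Of 198 columns, 12 could not be matched to a labelled sample and were not used. Depth is unequal (6587631 to 27420857 counts per tumor), so low values are less precise in shallow libraries. RSEM splits reads that fit several genes, which makes values of overlapping genes uncertain.

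Genes were kept with edgeR's filterByExpr, set to a minimum count of 10, a minimum share of samples of 0.5 and a large-group size of 5, then TMM-normalized in edgeR (4.0.16) and fitted with limma-voom (limma 3.58.1; R 4.3.3) over all 186 tumors, with Benjamini-Hochberg adjustment over all genes tested and a threshold of 0.05. The trial was a covariate in each fit other than that of the trial itself. Log2 CPM used a prior count of 2. The GS-1 signature is longer than the 27 genes used here, which are those the study kept after its own filter. Marker levels are mean z-scores over the genes of a list that passed the filter, scaled to a standard deviation of 1. Correlations used 2-sided permutation tests with 100000 resamples (numpy). No tumors were grouped by measured values. edgeR's quasi-likelihood test, DESeq2 (1.42.0), other library factors, no filter, the library-name group, single trials, other GS-1 levels and the omission of the 2 farthest tumors were alternatives. On data simulated for the GS-1 fit over 13422 genes, 99 of 100 genes with a slope of 0.5 and 100 of 100 with a slope of 1 were called, and 13 of 13222 genes with no slope.

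The genes named are the 9 members, the 3 named genes most like each by Spearman rho, and the 5 genes of the wider bone list with the largest slope on the GS-1 level. Some results under this rule are not reported here. Members and lists were chosen with earlier results of these data known. Each tumor is from a different dog, so replicates are animals.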

Additional observations from a re-analysis of the deposited data

How the results depend on the processing

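The trial comparison called 2 genes in limma-voom, 129 in edgeR (89 higher and 40 lower in COTC022), 91 in DESeq2 (49 and 42), 4 with upper-quartile factors, 0 with library totals alone, 5 in 1-bar libraries and 0 in 2-bar ones. None of the 9 genes was called in any of these. Some signs turned without passing: DLX5 was -0.0279 in edgeR and -0.0336 in DESeq2 and -0.0049 with library totals, BGLAP was -0.0363 in edgeR and -0.0443 in DESeq2, SP7 was -0.54 and DLX5 -0.25 in 2-bar libraries, and ALPL was 0.0251 in 1-bar ones. The cause was not tested.

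For the GS-1 level, 3381 genes were called in 2-bar libraries (58.4% of them higher, beside 45.9% over all tumors) and 3713 in COTC021 alone, where fewer samples were fitted. Of 126 values of the 9 genes under alternatives, 120 kept their direction and side of the threshold, 3 lost the call (IBSP in 1-bar libraries, -0.50, and in COTC021, -0.81; SPP1 in COTC022, 0.29) and 3 turned: SPP1 in 2-bar libraries (-0.0499), and PHEX in COTC022 (0.0047) and without the 2 farthest tumors (0.0339). The interaction with the trial called 2 genes in edgeR, where ALPL (0.0653), IBSP (-0.0391) and DMP1 (-0.28) turned without passing. Between library-name groups IBSP turned in edgeR (-0.0377); with the capital letter of the sample title as the grouping DMP1 turned (-0.14) and RUNX2 passed (0.40, adjusted p = 0.0292).

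Of 324 pair correlations under alternatives, 314 kept their sign and side of the threshold, 7 gained and 2 lost it, and 1 turned: RUNX2 with SPP1 once the osteoclast level was regressed out as well (-0.0051), an alternative added after the data were seen, as was the osteoclast covariate. The count of pairs that passed ran from 32 to 36. No paired analysis was possible because each dog gave 1 tumor and the groups share no replicate numbers. The planned search of promoters and proteins was not run, since no sequences were at hand. Depth limits SP7, BGLAP, PHEX and DMP1 most, in the tumors with under 10 counts.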

Other observations

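Genes near RUNX2 on the chromosome tended to vary with it. Of 79 genes tested within 5 Mb of RUNX2, 50.6% had a Spearman rho above 0.3 with it, beside 7.34% of all genes, and their median rho was 0.30, beside 0.05 for 326 genes on the rest of chromosome 12. The share was 55.3% within 2 Mb and 34.5% within 10 Mb. For SP7 it was 32.7% of 101 genes within 5 Mb (8.02% of all genes), and the highest was RARG (rho = 0.57). For DLX5 it was 25.6% of 39 genes (6.88% of all genes), for ALPL 16.5% of 133 (7.23%) and for BGLAP 11.3% of 142 (5.25%). On chromosome 32 the shares were 0% of 44 genes for IBSP (2.65% of all genes), 11.6% of 43 for SPP1 (5.63%) and 6.67% of 45 for DMP1 (3.26%). KLHL8 was the neighbor most like SPP1 (rho = 0.68) and most like DMP1 (0.39). PHEX had 6.06% of 33 genes (2.92% of all genes). These are correlations across genes of the same libraries, which are not independent, and no test was made.

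Low values of the 9 genes gathered in few tumors. The 18 tumors lowest in each gene were listed, and 135 of the 186 tumors were in none of the 9 lists, while 5 were in 7 of them and 2 in 8. One of these 2, from COTC021, had 0.739 CPM of SP7, 17.8 CPM of ALPL, 0.739 CPM of IBSP and 0.493 CPM of BGLAP, with 90.7 CPM of RUNX2 and 176 CPM of SPP1. The other, from COTC022, had 1.27 CPM of SP7, 22.3 CPM of ALPL, 14.7 CPM of IBSP and 124 CPM of SPP1. Marker levels of other cell types in these 2 tumors are given in SD units over all tumors and in the same order. They were fibroblast 1.91 and 1.83, endothelial 1.52 and 1.00, leukocyte 1.43 and 0.73, and osteoclast -1.42 and -1.003. The others were chondrocyte -1.02 and -0.93, proliferation -2.27 and -1.27, adipocyte 1.25 and 0.73, and skeletal muscle -1.17 and 0.33. Over the 5 tumors in 7 lists, the fibroblast level ran from -1.85 to 2.37 and the leukocyte level from -0.57 to 2.84. The part of these in the low values was not tested. High values were less gathered. No tumor was among the 18 highest for more than 6 of the 9 genes, and 2 tumors reached 6.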
